A study of Tupaia belangeri with 6 samples.

Results

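The loci described here carry the plain name of a cytosolic ribosomal protein in the tree shrew annotation, such as RPL10 or RPS3, without the suffix "li" and a number that the annotation gives to gene-like copies. They were picked by name alone, among loci with an assigned strand, and 66 of the 95863 loci in each library qualified (40 named for the large subunit and 26 for the small subunit). The same 66 loci were found in all 6 libraries. RNA came from the prefrontal cortex (PFC) of adult tree shrews (Tupaia belangeri), 3 females (numbers 1, 3 and 4) and 3 males (numbers 1, 4 and 5), and was enriched for polyadenylated molecules and sequenced in paired ends. No treatment or genetic change is named in the labels. The sample overview of the study lists every male at a greater age than every female, so sex and age cannot be told apart. Levels are given in TPM, a transcript abundance scaled for transcript length and for the library total, and therefore allows levels of different loci to be compared. The deposited tables hold no read counts, and the mean coverage they give for each locus was not used here, so no counting interval was computed. The sources used here name no strand-specific protocol, which leaves uncertain the values of loci with an overlapping locus on the other strand. Near-identical copies can share reads, so their values are uncertain too.

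Ribosomal proteins are structural parts of the cytosolic ribosome, in which the small subunit decodes the messenger RNA and the large subunit joins the amino acids. A ribosome needs nearly all of them in equal number, the stalk proteins being the known exception, and their genes are among the most strongly transcribed housekeeping genes in most tissues, brain included. Mammalian genomes also hold many processed pseudogenes of these genes, which are intronless copies of the messenger RNA and can share reads with the parent gene.

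Most of the 66 loci had no TPM assigned to them. In all 6 animals 38 were listed at 0 TPM, 14 were above 0 in every animal, and the other 14 were above 0 in some animals only. Levels of at least 10 TPM in mean were reached by 10 loci, and those 10 held 99.4% of the summed TPM of the 66. Widely expressed genes outside the set, such as the elongation factor EEF1A1, are also listed at 0, so a 0 is not read as absence of expression. A further 3 loci lay between 1 and 10 TPM and 15 lay above 0 but under 1 TPM. A general absence of ribosomal protein mRNA is not what the tables show, because a suffixed copy of RPL32, for instance, had 1348 TPM in mean. The data therefore go against reading the 66 loci as the set of working ribosomal protein genes, and they are called unsuffixed loci below. No sequence of these loci was in the files used here, and none is printed.

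The expressed loci described here are RPS25, RPL10, RPS3, RPS21, RPL13, RPL35A, RPL11, RPL23 and RPL18, in falling order of mean level. RPS25, a small subunit protein known for its part in internal initiation of translation, lay on chromosome 9 from 14006902 to 14008717 in the TS_3.0 build, on the plus strand. Its level was 494, 418 and 762 TPM in females 1, 3 and 4 and 587, 667 and 531 TPM in males 1, 4 and 5. Female 4 was highest and female 3 lowest, and the sexes overlapped. The opposite strand there carries TRAPPC4, a subunit of a vesicle tethering complex, at 224 TPM in mean.

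RPL10, which lies near the catalytic centre of the large subunit and is needed for joining the subunits, had 491, 487 and 551 TPM in the females, against 378, 502 and 351 TPM in the males. This locus spans 710 bases on chromosome 10 from 55538601 to 55539310, on the minus strand, and had no annotated locus opposite. RPS3, which lines the channel where messenger RNA enters and also acts in DNA repair, had 349, 301 and 407 TPM in the females, against 311, 358 and 264 TPM in the males. Male 5 was lowest for both genes and female 4 highest. RPS3 covers 12386 bases of chromosome 17, from 44653947 to 44666332.

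RPL13, an early-assembling protein of the large subunit, had 321, 195 and 402 TPM in the females against 225, 316 and 163 TPM in the males. RPL35A, a large subunit protein mutated in some patients with Diamond-Blackfan anaemia, had 209, 180 and 290 TPM in the females, against 158, 313 and 153 TPM in the males. In both the ranges of the sexes overlapped, and male 5 was lowest. RPL11, which with RPL5 binds the 5S ribosomal RNA and can restrain MDM2, had 146, 121 and 204 TPM in the females, against 205, 190 and 165 TPM in the males.

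RPL23 and RPL18 were far lower. RPL23, which also binds MDM2, had 51.3, 27.5 and 59.0 TPM in the females, against 51.8, 43.0 and 48.8 TPM in the males. RPL18, a large subunit protein, had 20.0, 8.59 and 10.5 TPM in the females, against 14.7, 10.3 and 13.5 TPM in the males. Both names had a suffixed copy with a higher level, and the unsuffixed loci held 7.74% and 7.73% of all TPM under the names RPL23 and RPL18. By contrast the unsuffixed RPS25 locus held 99.8% of its name, RPL10 held 83.0% and RPL35A held 80.8%.

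**Figure D1:**
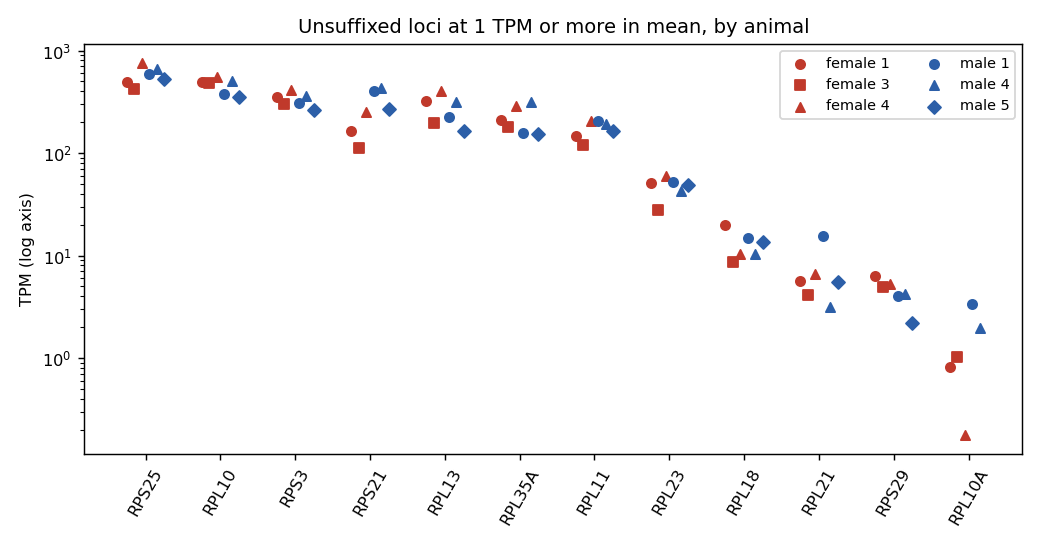
TPM on a log axis for each animal at 12 unsuffixed loci with a mean of 1 TPM or more, ordered by mean, with females in red and males in blue and a marker shape for each animal. Values listed at 0 (RPL10A in male 5) cannot be drawn on this axis. The 7 loci drawn at 100 TPM or more stand apart from the rest, and RPS21 shows the males above the females.

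Just under the 10 TPM line were RPL21 and RPS29. RPL21, a large subunit protein mutated in an inherited hair loss, had 5.58, 4.15 and 6.65 TPM in the females, against 15.6, 3.17 and 5.51 TPM in the males, so that male 1 stood above the others. RPS29, a zinc-binding small subunit protein, had 6.34, 4.91 and 5.31 TPM in the females, against 4.07, 4.24 and 2.19 TPM in the males, with every female above every male. An unnamed locus on the opposite strand of RPS29 had 224 TPM in mean. RPL10A followed at 1.22 TPM in mean and was listed at 0 in male 5.

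By function, the stalk that recruits translation factors had almost no TPM at unsuffixed loci. RPLP0 and RPL12 were listed at 0 in every animal, RPLP1 had 0.147 TPM in mean, and RPLP2 has no unsuffixed locus. Of the 5S particle, RPL11 was expressed and RPL5 was listed at 0. Of the 7 unsuffixed loci for proteins at the exit tunnel and its rim, which the nascent chain passes, 3 were listed at 0, and the summed level of all 7 was at most 2.92 TPM in any animal, with RPL19 the strongest at 0.999 TPM in mean. Of the proteins at the messenger RNA entry, only RPS3 had an unsuffixed locus. Of 11 loci named for genes mutated in Diamond-Blackfan anaemia, an inherited failure of red cell production, 7 were listed at 0, RPS19 among them, and RPL11 and RPL35A were the expressed ones.

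Of the 10 loci for genes with a known paralog, 7 were listed at 0. RPL3L, the striated muscle counterpart of RPL3, was listed at 0.0853, 0.102 and 0 TPM in the females, against at 0, 0.266 and 0 TPM in the males. RPL22L1, RPL7L1, RPL10L and RPS27L were listed at 0 in all animals. FAU, a ribosomal protein made as a fusion with a ubiquitin-like protein and lying outside the name rule, was listed at 0.109 TPM in female 1 and at 0 in the other animals. The 38 loci at 0 tie for the lowest level and cannot be ordered.

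The position of the unsuffixed loci shows a regularity of the annotation. Of the 66 loci, 40 (60.6%) lay on chromosome 1, compared with 7.01% of all stranded loci and with 92 (6.24%) of the 1475 suffixed copies. None lay on the X chromosome, and the locus named RPS4X, after the X-linked human gene, was on chromosome 1 and listed at 0. The strongest locus under that name was a suffixed copy on the X chromosome, at 464 TPM in mean. For 61 names there are suffixed copies as well. In 57 of these 61 the unsuffixed locus is the first one when loci are ordered by chromosome name as text, then strand, then start, the exceptions being RPL23, RPL7A, RPS25 and RPS7. Among the 66 loci 25 spanned less than 1000 bases, and RPL10 was the one of these that reached 10 TPM. The median span was 12914 bases for the 10 expressed loci and 2532 bases for the 38 listed at 0.

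Suffixed copies carried most of the signal under these names. A copy was the strongest locus of its name, at 10 TPM or more, for 37 names, and the unsuffixed locus was for 8 names, RPL10, RPL11, RPL13, RPL35A, RPS21, RPS25 and RPS3 among them. For 20 of the 66 names all loci together stayed under 10 TPM. Among the 66 names the largest sums over copies were those of RPL31 (1395 TPM over 66 copies), RPL21 (1379 TPM over 179 copies) and RPL32 (1365 TPM over 16 copies), all large subunit proteins, whose unsuffixed loci had 0, 6.78 and 0.156 TPM in mean. RPL6 had the most copies, 286 in number.

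Gene order gave a measure of position that does not use levels. The 5 named protein-coding neighbours on each side of each gene in the RefSeq annotation (assembly TupChi_1.0) were looked for within 1 Mb of each tree shrew locus of the same name in TS_3.0, and 2 shared neighbours were required. For 54 of the 66 names RefSeq held a single protein-coding gene of that name with enough named neighbours. The rest, RPS21 and RPL35A among them, had no such RefSeq gene and could not be placed by gene order. The unsuffixed locus shared the neighbours in 7 names, among them RPL11, RPL13, RPL3L, RPS25, RPS29 and RPS3. The other 47 unsuffixed loci shared fewer than 2. For 26 names the strongest copy lay beside the RefSeq neighbours, at 89.8 to 1348 TPM with a median of 383 TPM. These include RPL4 and RPL19 of the exit tunnel, RPL5 of the 5S particle, RPS6, the substrate of S6 kinase, and RPS19, at 748, 1325, 386, 615 and 650 TPM for the strongest copy. For RPL31 a weaker copy lay there.

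**Figure D2:**
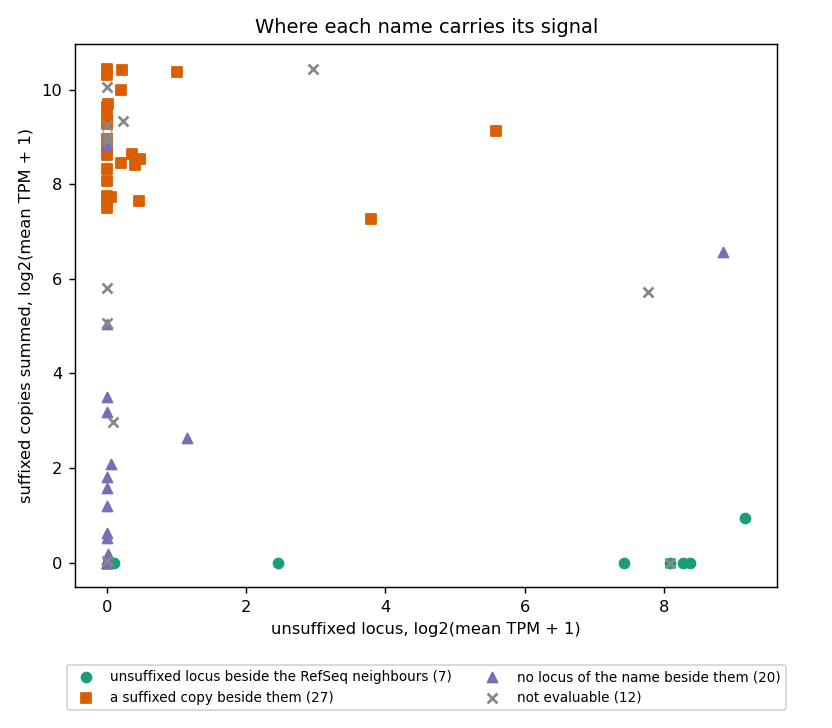
Each point is 1 of the 66 names, with the level of its unsuffixed locus on the horizontal axis and the summed level of its suffixed copies on the vertical axis, both as log2(mean TPM + 1) over 6 animals. Colours and shapes give which locus lies beside the RefSeq neighbours. Names with a copy at that position lie high on the left, apart from RPL23 and RPL18 further right, and those with the unsuffixed locus there lie along the bottom.

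For the remaining 20 names no locus of the name lay beside the RefSeq neighbours, and 16 of these had under 10 TPM over all their loci. The highest of the 20 was RPL10, at 554 TPM over all its loci. The expressed unsuffixed RPL10 locus thus did not lie at the RefSeq place of RPL10. In 9 of the 20 names an unnamed stranded locus lay between the nearest neighbours on either side, and the strongest such locus had 26.5 to 1115 TPM in mean, with a median of 394 TPM. The locus was picked as the strongest in its interval, so its level is a description, and no file used here ties it to a ribosomal protein. Between DUSP7 and ABHD14A, where RefSeq places RPL29, the unnamed locus had 1189, 1086 and 1249 TPM in the females, against 1361, 1095 and 710 TPM in the males. Between TEAD3 and FANCE, the RefSeq place of RPL10A, it had 588 TPM in mean, while all loci named RPL10A summed to 6.42 TPM. For RPL12 of the stalk, between LRSAM1 and ZNF79, it had 545 TPM, compared with 1.98 TPM over all loci of the name.

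**Figure D3:**
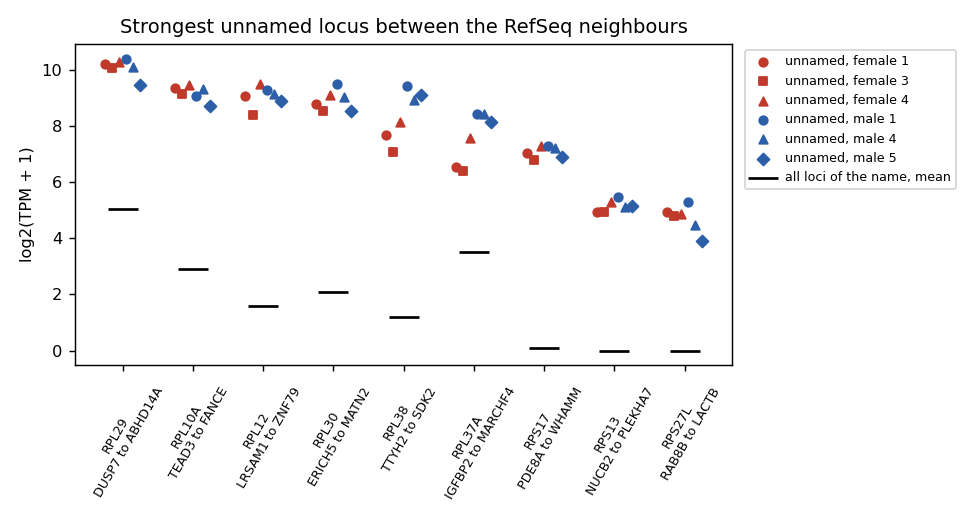
Level of the strongest unnamed locus between the RefSeq neighbours of 9 names, as log2(TPM + 1) for each animal (females red, males blue), with a black dash at the mean over all loci that carry the name. The unnamed locus lies above the dash for all 9 names, and the males lie above the females at RPL38 and RPL37A.

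Levels varied moderately between animals. Over the 6 animals the highest value of an expressed locus was at most 3.81 times the lowest, at RPS21. The coefficient of variation of the 10 expressed loci ran from 15.2% for RPS3 to 46.5% for RPS21, with a median of 22.3%, beside a median of 21.0% and quartiles of 15.6% and 28.5% for the 7935 stranded loci in the same range of levels. Female 4 was highest for 5 of the 10 loci, male 1 and male 4 for 2 each, and female 1 for RPL18. Female 3 was lowest for 6 and male 5 for 4.

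Within the 10 loci the proportions were far from equal. RPS25 took 19.3% to 24.1% of their TPM in the 6 animals and RPL10 took 14.0% to 23.3%, whereas RPL11 took 5.71% to 7.57% and RPL18 under 0.780%. The share of RPS25 was the steadiest, with a highest value 1.25 times the lowest. RPS21 was the least steady, with 6.41%, 5.40% and 7.64% in the females, against 14.9%, 13.7% and 12.1% in the males. RPL10 moved the other way in part, with 19.2%, 23.3% and 16.7% in the females, against 14.0%, 15.9% and 15.9% in the males. Shares within a fixed set are tied to each other, so a larger share of RPS21 lowers the rest.

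Over all 66 loci the sum was 2575, 2107 and 3324 TPM in the females, against 2730, 3160 and 2213 TPM in the males. The means were 2669 ± 614 and 2701 ± 474 TPM (SD, n = 3 each), and the two-sided exact permutation test gave p = 1. Large subunit loci summed to 1267 ± 250 TPM in females against 1112 ± 244 TPM in males, and small subunit loci to 1402 ± 365 and 1589 ± 247 TPM (SD, n = 3 each). The ratio of large to small subunit sums was 0.940, 0.950 and 0.849 in the females, against 0.629, 0.776 and 0.689 in the males, with no overlap. The means of 0.913 ± 0.0557 and 0.698 ± 0.0740 differed by 0.215 (exact permutation test, two-sided, p = 0.1, n = 3 each), and 0.1 is the smallest p that 3 against 3 animals allow.

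This ratio rested on few loci. Without RPS21, an alternative chosen after the data were seen, it was 1.07, 1.06 and 0.987 in the females, against 0.828, 1.02 and 0.866 in the males, so that the sexes overlapped (exact permutation p = 0.2, n = 3 each). With the suffixed copies added to every name it was 1.90 in females and 1.85 in males, a difference of 0.0456 (exact permutation p = 0.2, n = 3 each).

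**Figure D4:**
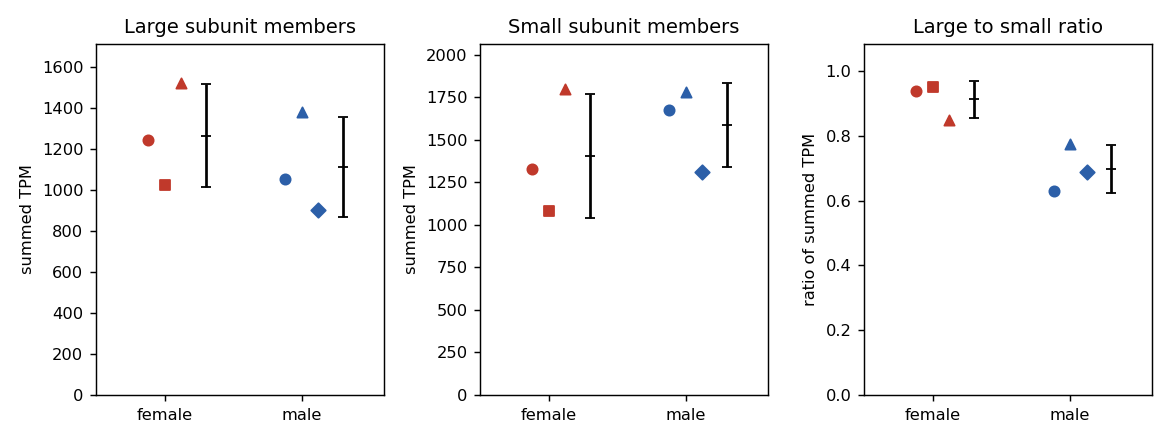
Summed TPM of the unsuffixed large subunit loci, of the small subunit loci, and the ratio of the sums, for each animal (females red, males blue), with the mean and SD of each sex as black bars. The ratios of the 3 females lie between 0.849 and 0.950, above the males at 0.629 to 0.776, whereas the sums overlap.

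Differences between the sexes at single loci were tested with limma on log2(TPM + 1), with Benjamini-Hochberg adjustment made separately for autosomal and X-linked genes. Of the 66 loci, 19 passed the filter of 0.1 TPM in 3 animals. None of these passed an adjusted p of 0.1 (background over all genes, 0.0174%). At an unadjusted p under 0.05 there were 2, RPS21 among them, beside a background of 5.01%. Of these, 1 was higher in females (background 2.4%), through which alone it entered the test, and RPS21 was higher in males (background 2.61%). The TPM ranges of the sexes did not overlap for 3, RPS21 and RPS29 among them, beside a background of 9.8%. Because a bulk sample was sequenced, fewer cells of a type and less RNA per cell cannot be told apart in any of these differences. The animals were labelled as separate, and the p-values measure the spread between these 6.

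RPS21, a late-assembling small subunit protein, lay on chromosome 9 from 49452375 to 49466072 on the minus strand. It had 164, 113 and 253 TPM in the females, against 404, 430 and 267 TPM in the males. The lowest male, number 5, was just above the highest female, number 4. The female minus male difference was -1.10 on the log2(TPM + 1) scale (SE 0.313, limma unadjusted p = 0.00717, adjusted p = 0.925), lower in 3 of 3 females. It ranged from -1.40 to -0.82 when single animals were left out. The opposite strand holds CABLES2, a cyclin-dependent kinase partner, at 75.3 TPM in mean.

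Other measures moved with sex in the same libraries. Of the blood markers, hemoglobin genes HBG, HBQ1 and HBZ, all 3 found by name, the summed level was 1272 to 2539 TPM over the females, against 62.7 to 100.4 over the males, and both that could be tested were called higher in females. Of the oligodendrocyte markers 3 were found (MAG, MBP and MOG), with a summed level of 348 to 482 TPM over the females, against 80.7 to 236 over the males, and none was at 0 in all animals. MAG made up most of this sum and was higher in every female, and its difference was 1.68 (limma unadjusted p = 0.000383, adjusted p = 0.893). MOG differed by 1.64 with overlapping sexes (limma unadjusted p = 0.0252, adjusted p = 0.925), and MBP by 0.27 (limma unadjusted p = 0.400). Loci without an assigned strand took 2.30% to 3.33% of TPM in the females, against 5.16%, 2.67% and 7.88% in males 1, 4 and 5. Neuronal markers (7 found) summed to 6726 to 8664 TPM over the females, against 6547 to 7903 over the males, so the defining markers of the labelled brain tissue were present, and the sums for astrocytes, microglia and endothelium overlapped between the sexes. Single markers in these lists differed: the endothelial CLDN5 was higher in every female (0.83, limma unadjusted p = 0.00850, adjusted p = 0.925), and the astrocyte ALDH1L1 had a difference of 1.09 (limma unadjusted p = 0.0406, adjusted p = 0.925) with overlapping sexes. The part of blood, oligodendrocyte, endothelial or astrocyte RNA, or of strandless loci, in the RPS21 difference was not tested. The striatal marker RGS9 had 48.0, 43.7 and 1.52 TPM in the females, against 54.6, 0.355 and 0.392 TPM in the males. DRD1, the other striatal marker found, had 5.05, 7.06 and 1.20 TPM in the females, against 4.02, 4.83 and 2.70 TPM in the males.

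RPS29 differed by 0.56 (SE 0.414, unadjusted p = 0.208 by limma). RPL10 and RPL13 had differences of 0.33 (SE 0.209) and 0.37 (SE 0.322), and RPL11 one of -0.28 (SE 0.220), each without passing the unadjusted test by limma. These values depended on single animals: RPL11 was -0.48 without female 4 (limma unadjusted p = 0.0369) and -0.11 without female 3, and RPL10 was 0.48 without male 4 (limma unadjusted p = 0.0311). RPL13 ran from 0.14 without male 5 to 0.66 without female 3, and RPS29 was 0.33 without male 5. Without males 1 and 5, an alternative chosen after the data were seen, RPL10 was 0.02, RPL13 -0.11 and RPS29 0.31. The other 6 expressed loci lay between -0.13 and 0.18.

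**Figure D5:**
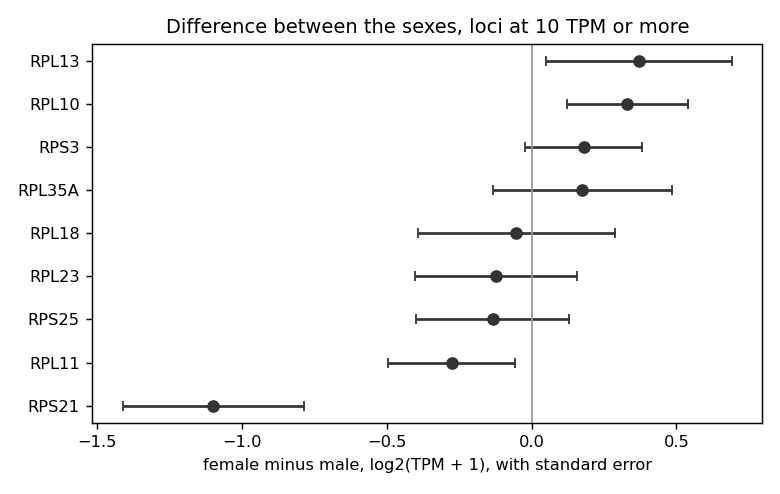
Female minus male difference in mean log2(TPM + 1) for 9 unsuffixed loci with 10 TPM or more, with the limma standard error as bars. RPS21, at -1.10, lies apart from the others, which run from -0.28 to 0.37.

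When the suffixed copies were added to each name, 56 names could be tested and again none passed an adjusted p of 0.1 (limma, background 0.0175%). At an unadjusted p under 0.05 there were 2, RPS21 and RPS26, beside a background of 4.97%. RPS26, a small subunit protein at the messenger RNA exit, was higher in females by 0.76 (limma, unadjusted p = 0.0404, adjusted p = 0.927). Its level was low, at 8.13 TPM in mean over all loci of the name, with the unsuffixed locus listed at 0.

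The unnamed loci between RefSeq neighbours gave 2 further cases of higher male values, out of 9. At the RefSeq place of RPL38, between TTYH2 and SDK2, the unnamed locus had 206, 134 and 285 TPM in the females, against 696, 490 and 553 TPM in the males. Its difference was -1.52 (SE 0.288, limma unadjusted p = 0.000607, adjusted p = 0.925). At that of RPL37A, between IGFBP2 and MARCHF4, the values were 93.1, 83.6 and 192 TPM in the females, against 344, 348 and 284 TPM in the males, with a difference of -1.49 (SE 0.303, limma unadjusted p = 0.000962, adjusted p = 0.925). In these 2 of 9 the sexes did not overlap (background 9.8%), and neither passed the adjusted threshold. These loci were singled out after their values were seen.

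Other genes of translation were described by the same test, beside the backgrounds of 0.0174% called and 5.01% at an unadjusted p under 0.05. Of 31 cytosolic translation factors found by name 20 were tested, 0 were called and 0 had an unadjusted p under 0.05 by limma. The strongest was the elongation factor EEF2 at 1304 TPM in mean, and EEF1A1 was listed at 0 in all animals, as were many unsuffixed ribosomal loci. The smallest p was that of EIF5B, a subunit joining factor (-0.80, limma unadjusted p = 0.106). Of 25 ribosome biogenesis genes 19 were tested, with 0 called and 0 at an unadjusted p under 0.05. NOP56, a core protein of box C/D particles, was highest at 115 TPM in mean, FBL, the methyltransferase of those particles, was listed at 0, and NHP2 had the smallest p (0.47, limma unadjusted p = 0.0620).

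Of 9 genes for the kinases of ribosomal proteins and the control of TOP messenger RNAs, whose leading pyrimidine tract places ribosomal protein synthesis under mTOR control, all 9 were tested, 0 were called (background 0.0174%) and 1 was higher in females at an unadjusted p under 0.05 by limma (background 2.4%). RPS6KA1, a kinase of RPS6, had 39.7, 47.0 and 34.9 TPM in the females, against 23.1, 19.4 and 6.85 TPM in the males, a difference of 1.40 with limma unadjusted p = 0.00713 and adjusted p = 0.925. RHEB, the activator of mTORC1, was highest at 203 TPM in mean and LARP4 lowest at 13.2 TPM. Of 58 mitochondrial ribosomal protein genes 46 were tested and 0 were called. At an unadjusted p under 0.05 by limma 2 were raised in the females (background 2.4%) and 1 in the males (background 2.61%), MRPL54 having the smallest p (1.05, unadjusted p = 0.0130). The 1 raised in the males, MRPL22, was listed at 0 in every female, so it entered the test through the males alone. MRPL12 was the strongest at 318 TPM in mean, and 9 of the 58 were listed at 0 in all animals, compared with 38 of the 66 unsuffixed cytosolic loci.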

How the data were processed

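Polyadenylated RNA from the PFC of 3 female and 3 male tree shrews was sequenced. The authors mapped reads to TS_3.0 with HISAT2 2.2.1 and assembled, merged and measured transcripts with StringTie 2.2.1, per animal. The deposited TPM and FPKM values are scaled for length and library, and the deposited coverage is the mean depth of a locus and was not used for a result. The authors tested counts with DESeq2, which could not be repeated on TPM.

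TPM was summed over each gene ID and chromosome (Python 3.11.15, pandas 2.3.3, numpy 2.4.6, scipy 1.17.1, matplotlib 3.10.9). Genes with at least 0.1 TPM in 3 of 6 animals were tested with limma 3.58.1 (R 4.3.3, with trend) on log2(TPM + 1), a scale that understates changes of low genes. P-values were adjusted by Benjamini-Hochberg within autosomes and within X, with a threshold of 0.1. The chromosome X segment from 4542400 to 6144400, chromosome 26 before 3132930 and contigs were left out. Sums and ratios were compared by exact two-sided permutation.

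The spread among loci was computed on log2(TPM + 1), not on log2 TPM as planned, because most loci are at 0. On simulated data (28157 genes, 200 changed by a log2 difference of 3) the fit recovered 193, with 20 other calls. The 200 were drawn from the better expressed genes only, and the change was larger than the RPS21 difference of -1.10. The recovery therefore does not tell how often smaller changes, or changes of low loci, would be found. The members and lists were chosen with earlier results of these data known. Loci are named by level (5 highest and 5 lowest), spread, unadjusted p under 0.05, number of copies or list membership, and a few are not reported here. Lists held stalk, 5S, exit tunnel, messenger RNA entry, paralog, Diamond-Blackfan, fusion, translation factor, biogenesis and TOP genes, and cell type markers. Alternatives were other pseudocounts (0.1 and 0.01), filters, scalings, FPKM, copies added, the animal number as a block, no trend, and animals left out.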

Additional observations from a re-analysis of the deposited data

How the results depend on the processing

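No setting called an unsuffixed locus at an adjusted p of 0.1 by limma, and RPS21 kept its direction in all 19 alternatives (-1.40 to -0.82, adjusted p never under 0.484). The count at an unadjusted p under 0.05, 2 in the report, was 1 without the filter, with a filter at 1 TPM, with median-ratio scaling, quantile normalization or FPKM, and without the trend, and 1 without males 1 and 5 (an alternative chosen after the data were seen, in which the lone male is assumed to vary like the females). It was 1 to 2 with single animals left out, being 1 without female 1, female 3, male 1 or male 5. The 2 loci were RPS21 and RPL11 without female 4, and RPS21 and RPL10 without male 4. The female minus male difference in summed TPM, -32.2, became 16.4 with FPKM (in FPKM), 973 with copies added and -139 with only stranded loci kept. With single animals left out it ran from -360.0 to 248.7, turning positive without female 1 (14.8), female 3 or male 4 (197). Without males 1 and 5, the difference in summed TPM was -491, RPL13 was -0.11, RPL10 fell to 0.02 and RPS29 to 0.31. The median difference over the tested loci, -0.02, took either sign, from -0.16 without female 4 to 0.18 with a pseudocount of 0.01. With copies added, the spread of levels among loci went from an SD of 2.77 to 3.76 in log2(TPM + 1), and the spread over animals of the median locus from 0 to 0.266. For these changes the cause was not tested, except that most loci are at 0 until copies are added. The ratio of subunit sums kept its direction with copies added, with the block, without RPS21, without males 1 and 5 and with each animal left out (0.0456 to 0.254). Settings that rescale a whole library cannot change it.

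Animal numbers are shared by the sexes for 1 and 4 only, and the deviations of same-numbered animals correlated at 0.000979 and 0.0383 across genes, so nothing shows that a number pairs animals. With the number as a replicate block, the count at an unadjusted p under 0.05 was 1 and the difference in summed TPM was 4.62. What depth limits was not measured, since TPM keeps no depth and the deposited coverage was not used.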
